A study of Mus musculus with 10 samples.

Results

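Transforming growth factor beta (TGF-beta) signalling was followed through 10 transcripts of cultured mouse mammary epithelial cells: the ligands Tgfb1, Tgfb2 and Tgfb3, the receptors Tgfbr1, Tgfbr2 and Tgfbr3, the receptor-activated SMADs Smad2 and Smad3, and the feedback inhibitors Smad7 and Skil. They were chosen by gene symbol, as textbook components of the pathway, with earlier results of these data known. They are 10 of 53167 genes listed in the deposited count table. All 10 were among the 14415 genes that passed the filter on low counts. The cells were primary epithelial cells from wild-type mouse mammary gland, grown in medium with fetal bovine serum, a fluid that itself carries TGF-beta. Biglycan, a matrix proteoglycan with a leucine-rich core protein, was added at 100 ng/mL to the 5 samples of the BGN group and left out of the 5 Control samples. The labels state neither the duration of stimulation, nor the age of the mice, nor whether the samples came from separate cultures or animals, so the spread between samples may be technical and the p-values measure that spread alone.

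TGF-beta is secreted as a latent complex and, once released from it, binds the type II receptor, which recruits and phosphorylates the type I receptor. The type I receptor then phosphorylates SMAD2 and SMAD3, which enter the nucleus with SMAD4 and act on transcription. In the mammary gland the pathway is known for restraining epithelial proliferation and ductal growth, and for a part in involution after lactation. The biglycan core protein is known to bind TGF-beta, so the comparison bears on whether added biglycan altered transcripts of the pathway or those it controls.

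Between 18292624 and 21820560 reads were counted per library. Basal and luminal epithelial marker lists summed to 5472 to 6788 and 3797 to 4425 CPM (counts scaled to the library total) per library. Fibroblast markers summed to 40.6 to 59.8 CPM in all 10 libraries, mostly from Pdgfra. In all libraries together, Pdgfra had 7598 counts, Col1a1 868, Dcn 516 and Lum 4. Myeloid markers reached at most 4.25 CPM, mostly from Cd68 (327 counts in all libraries together) and Csf1r (249). Ptprc had 2 counts and Adgre1 0. Endothelial markers reached at most 6.45 CPM, mostly from Pecam1 (1033 counts), with Vwf at 67 and Cdh5 at 5. Of 7 lymphocyte markers, 6 had 0 counts in every library and Cd79a had 4 in all, while 5 adipocyte markers summed to 0.318 to 1.41 CPM. For no summed marker list did BGN and Control pass a two-sided exact permutation test (smallest p = 0.19, 0.631 adjusted over 9 library measures). In Control replicate 5, mitochondrially encoded genes took 1.16% of counts, where the other 9 libraries had 1.80% to 2.27%. Of the 5 Control libraries, 4 (1.16% to 2.13%) lay below every BGN library (2.14% to 2.26%) in this share (exact permutation p = 0.0873, two-sided, adjusted 0.631), and its part in the results was not tested. In such bulk samples, fewer cells of a type and less RNA per cell cannot be told apart.

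None of the 10 transcripts passed the test between BGN and Control. At an adjusted p under 0.05, 0 of 10 were called, as were 0 of all 14415 genes tested, or 0% (edgeR quasi-likelihood test, Benjamini-Hochberg adjusted over all genes). At an unadjusted p under 0.05 stood 2 of the 10, Skil and Tgfbr2, beside 694 or 4.81% of all genes tested. For 0 of the 10 did the CPM of the groups fail to overlap, beside 0.728% of all genes tested. DESeq2 and limma-voom also called 0 of the 10, with 2 at an unadjusted p under 0.05 in each. Estimates lay above 0 for 7 and below 0 for 3 of the 10, with a median log2 fold change (BGN over Control) of 0.028. Over all genes tested, 48% lay above 0 and the median was -0.0040.

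The estimates were narrow. The 95% interval stayed inside 1.25-fold, up or down, for all 10 transcripts, for 69.5% of all genes tested and for 83.7% of those averaging 50 counts or more. The narrowest interval was that of Skil, from 1.01-fold to 1.13-fold, and the widest that of Tgfbr3, from 0.814-fold to 1.21-fold. These intervals are for single genes and are not adjusted for the number of genes tested. Those of Skil and Tgfbr2 lay above no change, though neither gene was called. With 5 samples in each group, changes within these bounds are not excluded.

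**Figure D1:**
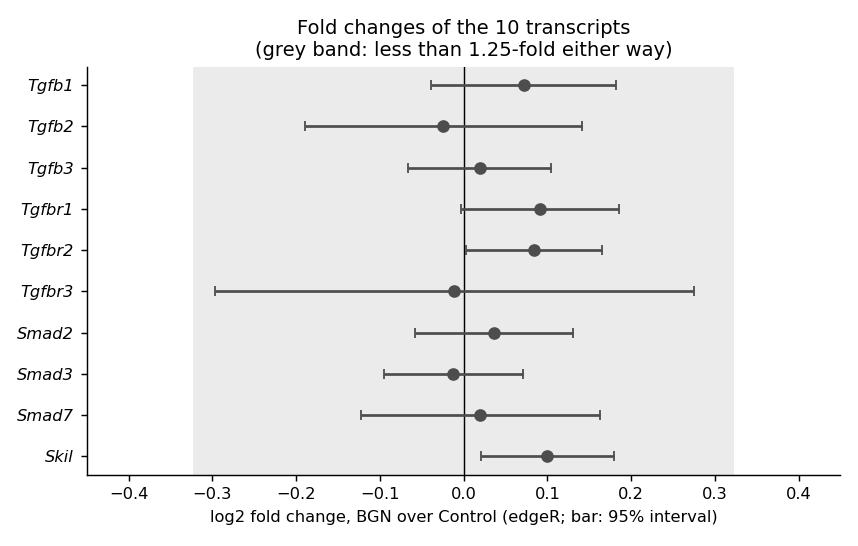
Log2 fold change (BGN over Control, x axis) of each of the 10 transcripts (y axis) by edgeR, with bars for the 95% interval and a grey band for changes of less than 1.25-fold in either direction. All 10 intervals lie within the band, and Tgfbr3 has the widest.

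Promoter sequences of 2 ligands are shown because they differed in makeup. Tgfb3 had no window among those used, and any relation of promoter makeup to transcript level was not tested. They are RefSeq sequences of build GRCm38.p6, from 250 bases before to 50 bases after the annotated start, written 5′ to 3′ on the strand of the gene. The Tgfb1 promoter lies at chr7:25686752-25687051 on the plus strand and the Tgfb2 promoter at chr1:186705940-186706239 on the minus strand. Capitals mark 3 motifs, each searched on both strands with no overlap between them in these windows: the GC box GGGCGG, the SMAD element CAGAC and the TATA box TATAAA.
Tgfb1: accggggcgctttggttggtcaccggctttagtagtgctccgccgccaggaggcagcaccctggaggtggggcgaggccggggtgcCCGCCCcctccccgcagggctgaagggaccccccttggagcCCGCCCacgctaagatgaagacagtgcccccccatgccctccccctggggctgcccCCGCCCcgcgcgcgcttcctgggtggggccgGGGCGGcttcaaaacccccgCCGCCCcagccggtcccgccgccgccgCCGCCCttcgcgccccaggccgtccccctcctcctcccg
Tgfb2: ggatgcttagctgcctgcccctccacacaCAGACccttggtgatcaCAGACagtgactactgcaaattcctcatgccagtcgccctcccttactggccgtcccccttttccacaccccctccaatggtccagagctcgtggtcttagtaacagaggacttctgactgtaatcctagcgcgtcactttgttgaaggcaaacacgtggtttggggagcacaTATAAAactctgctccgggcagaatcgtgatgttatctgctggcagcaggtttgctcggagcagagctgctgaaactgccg
The Tgfb1 window had a GC content of 77% and held 6 GC boxes, no SMAD element and no TATA box. The Tgfb2 window had a GC content of 54.3% and held 1 TATA box and 2 SMAD elements, with no GC box. Of 32851 promoter windows of the same length, 35.7% held a GC box, 49.6% a CAGAC and 13.6% a TATAAA, and the median GC content was 52.7%. The sequence TGANTCA (AP-1 site) and the sequence TGACGTCA (cAMP response element) were found in neither window, nor in those of Tgfbr1, Tgfbr2 and Smad3. They occurred in 7.81% and 1.79% of all windows. Smad3 (chr9:63757945-63758244) had 2 GC boxes, and so did the upstream of the 2 annotated Tgfbr1 starts (chr4:47352972-47353271). The downstream Tgfbr1 start (chr4:47385966-47386265) and Tgfbr2 (chr9:116175314-116175613) had 1 CAGAC each and no GC box. The count table does not tell transcripts from different starts apart. A match of letters is a description of the window and not evidence of binding.

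Of the ligands, Tgfb3 was by far the most abundant. In BGN replicates 1 to 5, Tgfb3 stood at 454, 466, 455, 480.1 and 511 CPM (here and below after TMM scaling, which adjusts for differences in library composition), and in Control replicates 1 to 5 at 458, 444, 476, 482 and 475 CPM. The groups overlapped, with BGN replicate 5 the highest library. Group means (± SD, n = 5, here and throughout) were 473 ± 23.5 CPM for BGN and 467 ± 15.7 CPM for Control. The log2 fold change was 0.020, 95% interval -0.066 to 0.10 (edgeR adjusted p = 0.986). Without BGN replicate 5 the estimate was -0.0079.

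Tgfb1 encodes the ligand most widely made by epithelial, stromal and immune cells. It stood at 52.7, 54.2, 57.6, 56.6 and 51.0 CPM in BGN and at 54.8, 50.6, 54.9, 51.9 and 46.8 CPM in Control. Of the BGN libraries, 2 lay above the highest Control library, and Control replicate 5 was the lowest of all. The means were 54.4 ± 2.75 and 51.8 ± 3.37 CPM, with a log2 fold change of 0.072 (interval -0.039 to 0.18, edgeR adjusted p = 0.957). Without Control replicate 5 the estimate was 0.038.

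Tgfb2, whose product depends on the co-receptor betaglycan for strong binding to the type II receptor, was the scarcest member. Its values were 21.1, 21.2, 17.4, 17.3 and 18.5 CPM in BGN, and 18.9, 20.2, 21.8, 19.1 and 17.0 CPM in Control. Libraries of both groups spread over the same range. The log2 fold change was -0.024 (interval -0.19 to 0.14, edgeR adjusted p = 0.988), and its sign turned when BGN replicate 3 or 4, or Control replicate 3, was left out (0.0061, 0.012 and 0.019). Per kilobase of transcript, Tgfb3 made up 82.6 ± 1.13% of the ligand transcripts in BGN and 83 ± 1.08% in Control. Tgfb1 made up 14.8 ± 1.06% and 14.3 ± 0.891%, and Tgfb2 2.63 ± 0.318% and 2.71 ± 0.245%. The ligand makeup therefore differed between the groups by less than the spread between libraries.

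The signalling receptors had small estimates above 0. Tgfbr2 encodes the type II receptor, the kinase that binds ligand first. It stood at 127, 128, 126, 126 and 117 CPM in BGN replicates 1 to 5 and at 118, 118, 119.5, 119 and 114 CPM in Control. Of the 5 BGN libraries, 4 lay above every Control library, while BGN replicate 5 lay below 4 of them. The means were 125 ± 4.32 and 118 ± 2.06 CPM, and the log2 fold change 0.084 ± 0.039 (SE; its interval ran from 0.0030 to 0.17; edgeR adjusted p = 0.945).

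Tgfbr1 encodes the type I receptor (ALK5), the kinase that phosphorylates SMAD2 and SMAD3. Its values were 81.2, 85.3, 83.6, 81.0 and 83.2 CPM in BGN and 72.9, 76.5, 78.6, 85.1 and 75.7 CPM in Control. The BGN libraries lay within a narrow range, above all Control libraries but replicate 4. The means were 82.9 ± 1.81 and 77.8 ± 4.59 CPM, with a log2 fold change of 0.092 (interval -0.0025 to 0.19, edgeR adjusted p = 0.945). Per length, the ratio of Tgfbr2 to Tgfbr1 with the median transcript length was 0.611 ± 0.025 in BGN and 0.615 ± 0.0318 in Control. With the longest transcript it was 1.07 ± 0.0439 and 1.08 ± 0.0558, so which receptor stood higher depended on the length used.

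Tgfbr3 encodes betaglycan, a membrane proteoglycan that presents ligand to the type II receptor and is without kinase activity. It was the most variable member, with a coefficient of variation over the 10 libraries of 13.3%. It stood at 60.9, 64.4, 67.0, 55.4 and 41.4 CPM in BGN and at 53.6, 65.5, 62.4, 53.8 and 55.3 CPM in Control. BGN replicate 5 was the lowest library and BGN replicate 3 the highest. The means were 57.8 ± 10.1 and 58.1 ± 5.49 CPM, and the log2 fold change was -0.011 (interval -0.30 to 0.27, edgeR adjusted p = 0.995). It was 0.091 without BGN replicate 5 (edgeR adjusted p = 0.909), and also above 0 without BGN replicate 4 (0.0052) or Control replicates 2 (0.037) or 3 (0.015).

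**Figure D2:**
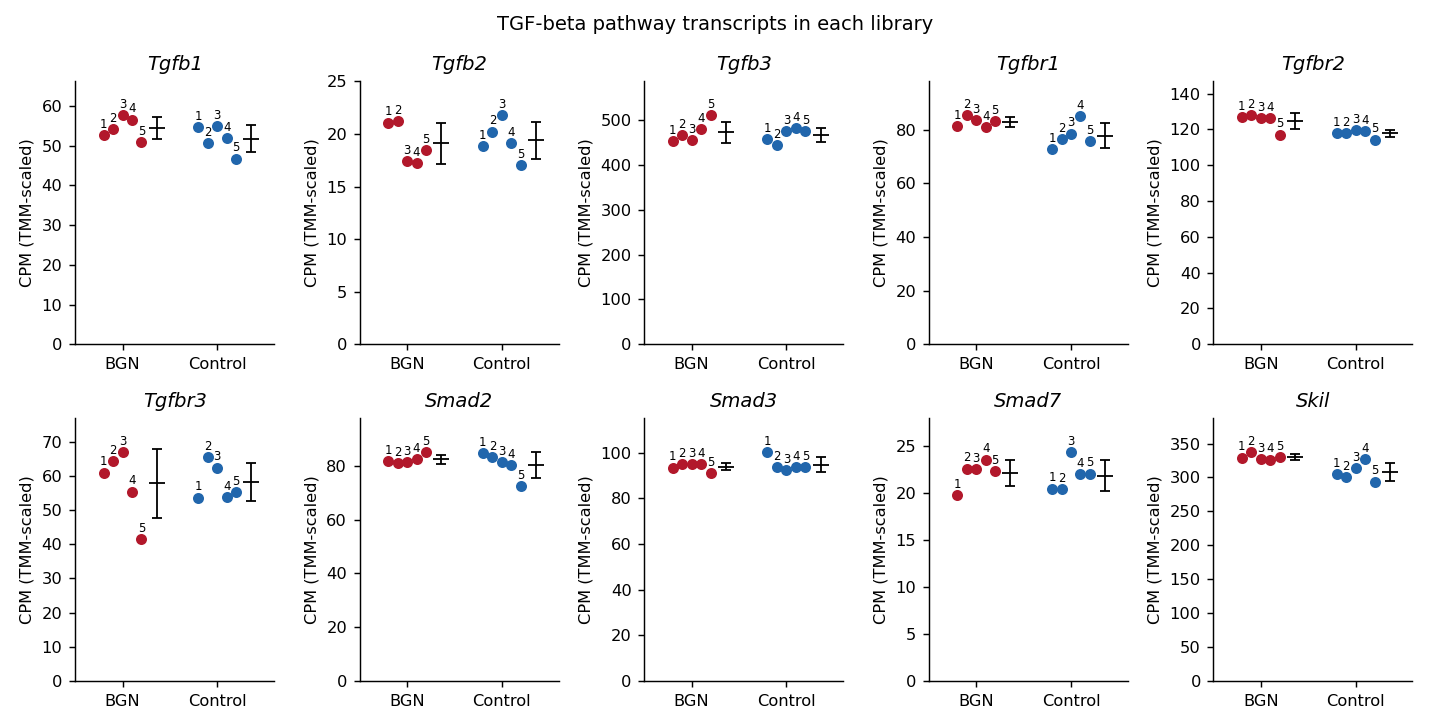
TMM-scaled CPM (y axis, from 0) of each of the 10 transcripts in the 5 BGN and 5 Control libraries (x axis), numbered by replicate, with the mean and SD of each group in black. The groups overlap in every panel, and BGN replicate 5 lies apart at 41.4 CPM for Tgfbr3 and 117 CPM for Tgfbr2.

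The receptor-activated SMADs had estimates close to 0. Smad2 stood at 81.7, 81.1, 81.4, 82.6 and 85.1 CPM in BGN and at 84.8, 83.1, 81.4, 80.2 and 72.4 CPM in Control. Control replicate 5 was the low library, and the other 9 lay between 80.2 and 85.1 CPM. The means were 82.4 ± 1.61 and 80.4 ± 4.77 CPM (log2 fold change 0.036, interval -0.059 to 0.13, edgeR adjusted p = 0.977). With the libraries numbered 5 of both groups left out, the estimate was -0.010.

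Smad3, whose product binds DNA directly, had the smallest variation of the 10, with a coefficient of 2.55%. Its values were 93.4, 95.1, 95.1, 94.9 and 91.2 CPM in BGN and 100.3, 93.8, 92.3, 93.7 and 93.8 CPM in Control. Control replicate 1 stood above the other 9 libraries. The log2 fold change was -0.012 (interval -0.095 to 0.071, edgeR adjusted p = 0.988), and 0.0081 without Control replicate 1. Smad4, the shared partner of both, averaged 127 ± 3.79 CPM with biglycan and 126 ± 5.19 CPM without.

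The feedback inhibitors differed in level but neither was called. Skil encodes SnoN, a co-repressor that binds SMADs and whose transcription TGF-beta induces. It stood at 329, 337.5, 327, 326.5 and 330.2 CPM in BGN and at 305, 301, 314, 327 and 294 CPM in Control. The BGN libraries were nearly alike, and 4 of them lay above every Control library; Control replicate 4 alone reached their range. The means were 330.2 ± 4.37 and 308 ± 12.7 CPM, and the log2 fold change 0.10 ± 0.038 (SE; 1.07-fold; its interval ran from 0.021 to 0.18). This was the largest estimate of the 10, with an unadjusted p of 0.0153 and an adjusted p of 0.945 by edgeR. Leaving out single libraries moved it between 0.084 and 0.12.

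Smad7 encodes the inhibitory SMAD that blocks the type I receptor, and is among the most rapid transcriptional responses to TGF-beta. Its values were 19.8, 22.6, 22.5, 23.5 and 22.3 CPM in BGN and 20.4, 20.4, 24.3, 21.9 and 22.0 CPM in Control. The lowest library was in BGN and the highest in Control. The means were 22.1 ± 1.39 and 21.8 ± 1.6 CPM, with a log2 fold change of 0.020 (interval -0.12 to 0.16, edgeR adjusted p = 0.988). The ratio of Skil to Smad7 per length was 5.94 ± 0.408 in BGN and 5.62 ± 0.379 in Control, with overlapping ranges, and 9.54 ± 0.654 and 9.02 ± 0.609 with the longest transcript.

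Levels were compared between genes per kilobase of transcript, using the median length of the protein-coding transcripts in GENCODE M21. Tgfb3 stood first at 139 CPM per kilobase (range over 10 libraries 131 to 151), followed by Skil at 67.3 (62.0 to 71.2), with no overlap of ranges. Smad2 (40.1), Tgfbr1 (34.2), Tgfb1 (24.4), Tgfbr2 (21.0) and Smad3 (18.5) formed the middle. Below them came Smad7 (11.7), Tgfbr3 (9.52) and Tgfb2 (4.48). Neighbours whose ranges overlapped were Smad2 and Tgfbr1, Tgfb1 and Tgfbr2, and Smad7 and Tgfbr3. Within each library the order held for every neighbouring pair, in 10 of 10 libraries. The middle of this order depended on the length used: with the longest transcript, Smad2 fell to 10.1 CPM per kilobase and lay below Smad3, and 3 of 10 members kept their rank, namely Tgfb3, Skil and Tgfb2.

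**Figure D3:**
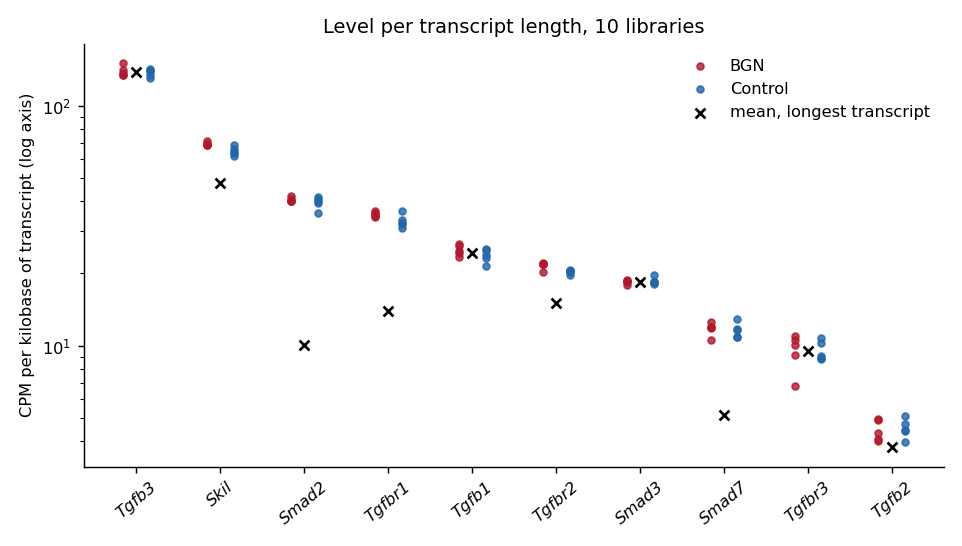
CPM per kilobase of transcript (log y axis) of the 10 transcripts, ordered by their mean with the median transcript length, with points for the libraries and crosses for the mean of the 10 libraries with the longest transcript. Tgfb3 and Skil lead and Tgfb2 is last with both lengths, while the cross of Smad2 falls from 40.1 to 10.1.

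Variation between libraries was small for most members and not shared by all of them. For 8 of the 10, the coefficient of variation was below 7.0%, the median over the 11965 genes averaging 50 counts or more. Those genes were not matched to the members for abundance, and the members averaged from 378 (Tgfb2) to 9240 counts (Tgfb3). Control replicate 5 was the lowest of all libraries for 5 members, Tgfb1, Tgfb2, Tgfbr2, Smad2 and Skil, and its mean deviation from the gene means was -0.084 on the log2 scale. This library had the low mitochondrial share and the highest basal (6788 CPM), luminal (4425 CPM) and fibroblast (59.8 CPM) marker sums, and the part of these in the values was not tested. Without it, Skil was at 0.084 and Smad2 within 0.0012 of 0. BGN replicate 2 was the highest library for 3 members, Tgfbr1, Tgfbr2 and Skil, with a mean deviation of 0.063. BGN replicate 5 was lowest for Tgfbr3 and Smad3 and highest for Tgfb3 and Smad2.

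**Figure D4:**
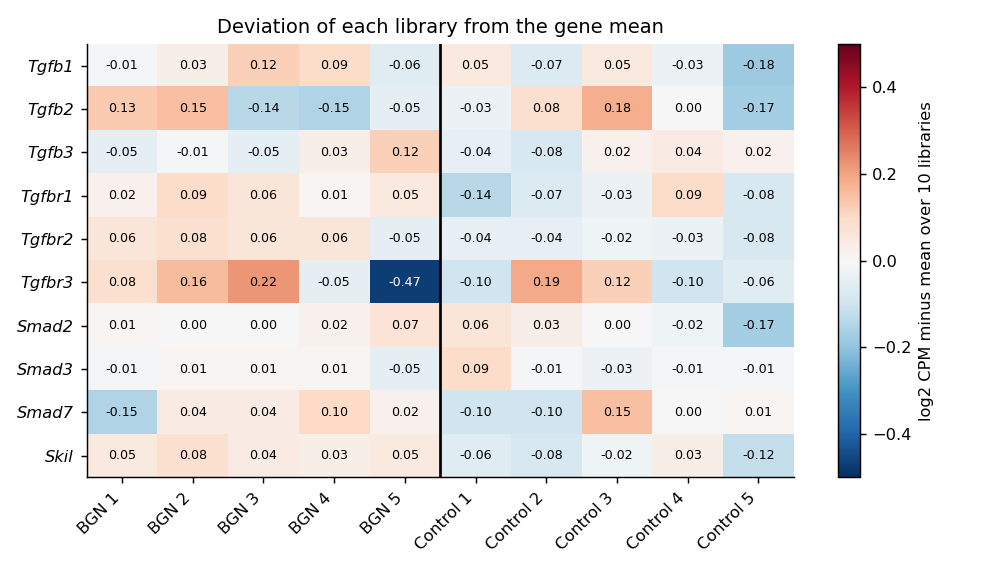
Log2 CPM minus the mean over the 10 libraries (colour and printed number) for each transcript (rows) and library (columns, BGN left of the line). The largest deviation is that of Tgfbr3 in BGN replicate 5, at -0.47, and Control replicate 5 is at or below -0.12 for Tgfb1, Tgfb2, Smad2 and Skil.

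Of the 45 pairs of members, 29 had a positive correlation of log2 CPM over the 10 libraries. After adjustment 1 pair passed by Pearson r, narrowly, and 0 by Spearman rho. The permutations were drawn at random, so an adjusted p this near 0.05 may fall on either side in another draw. Tgfbr1 and Skil varied together, with Pearson r = 0.89 (permutation p = 0.0011, 0.0495 adjusted over 45 pairs) and Spearman rho = 0.85 (permutation p = 0.00255, adjusted 0.115). Leaving out the 2 libraries farthest from the median of Tgfbr1, Control replicates 1 and 5, gave r = 0.89. With the group means removed r was 0.81, which was not tested, and the permutations did not keep the groups apart. The next pair, Tgfb3 and Tgfbr3, ran in opposite directions with r = -0.82 (permutation p = 0.00555, adjusted 0.125; rho = -0.65, permutation p = 0.0496, adjusted 0.683), and this relation rested on few libraries: without BGN replicate 5 and Control replicate 2, r was -0.47. The 2 feedback inhibitors Smad7 and Skil had r = 0.24 (permutation p = 0.499, adjusted 0.808) and rho = 0.19 (permutation p = 0.61, adjusted 0.885). Their r was 0.66 without BGN replicate 1 and Control replicate 3, which were farthest from the median of Smad7.

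Transcripts with the most similar profile were sought among 11965 genes, by Pearson r over the 10 libraries, which share depth and RNA quality within each library. The nearest to Skil were Golm2 (r = 0.952), Ids (0.939) and Mdfic (0.934), and the nearest to Tgfbr1 were Arhgap42 (0.946), Rb1cc1 (0.933) and Pds5a (0.931). Skil had 17 genes and Tgfbr1 19 genes with r over 0.9, above the r = 0.89 between these 2 members. Tgfbr3 had 75 genes with r over 0.9, led by Map3k1 (0.973), Plekhg1 (0.972) and Thbs1 (0.965), the thrombospondin gene whose product can activate latent TGF-beta. BGN replicate 5 lay farthest from the Tgfbr3 mean, at -0.47 on the log2 scale, and its part in these r values was not tested. For Tgfb2 and for Smad7 the number of such genes was 0 and 1, with Enpp2 (0.884) and Lipo3 (0.915) in first place. Those nearest to Tgfb1, Tgfb3, Tgfbr2, Smad2 and Smad3 were Mfsd14b (0.97), Nup62 (0.979), Ing1 (0.911), Gm13577 (0.983) and Rps13 (0.901). With 10 libraries and this many genes, high values arise in any such search, and they are given as a description.

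Around these members, genes that hold TGF-beta latent or release it gave no call. All 19 listed genes of latency and activation were tested: 0 passed, 13 had estimates above and 6 below 0, and the median log2 fold change was 0.044. The integrin subunit genes of smallest p were Itgb8, Itgav and Itgb6, whose products pair as the integrins that free TGF-beta from its latent complex. For Itgb8 the interval of the log2 fold change of 0.17 ran from 0.073 to 0.26, with 195 ± 7.44 CPM (BGN) against 174 ± 11.5 CPM (Control). Itgb6 stood at 29.2, 33.9, 28.4, 31.7 and 35.3 CPM in BGN and 27.8, 27.5, 29.2, 30.7 and 27.4 CPM in Control, with 3 BGN libraries above every Control library (0.15, from 0.018 to 0.29). Itgav was at 336 ± 23.1 and 305 ± 15.98 CPM (0.14). Each had an adjusted p of 0.945 by edgeR, and the groups overlapped for all 3. The list was drawn up with the Itgb8 and Itgav values of these data known, so their direction is no independent evidence.

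Extracellular binders, activin-type ligands and other receptors of the superfamily were likewise without a call. Of 9 binders 7 were tested, 4 above and 3 below 0 (median 0.017). Fst, the activin antagonist follistatin, was at 82.0 ± 3.89 and 78.4 ± 3.47 CPM (0.064), Lefty1 at 2.35 ± 0.503 and 2.85 ± 0.622 CPM (-0.27), and the biglycan gene Bgn itself at 9.74 ± 1.71 and 7.38 ± 1.88 CPM (0.40, edgeR adjusted p = 0.945). Activin-type ligands were dominated by Inhbb, the activin beta-B subunit gene, at 645 ± 15.8 and 663 ± 30.5 CPM (-0.039, and 0.00059 without the libraries numbered 5). Of 7 listed ligands 4 were tested, 3 above and 1 below 0 (median 0.042). Inha was at 1.06 ± 0.331 and 0.893 ± 0.256 CPM, and Gdf11 at 4.86 ± 0.668 and 4.65 ± 0.53 CPM. Of 11 other receptors 10 were tested, with 7 above and 3 below 0 (median 0.074). Bmpr2, a type II receptor of bone morphogenetic proteins, was at 307 ± 25.1 and 278 ± 22.5 CPM (0.14), the activin receptor gene Acvr2a at 60.9 ± 3.94 and 56.4 ± 2.76 CPM (0.11), and Bmpr1a at 477 ± 8.61 and 453 ± 24.1 CPM (0.076), each with an adjusted p of 0.945 by edgeR.

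SMAD regulators gave 0 calls among 16 tested of 18 listed, with 12 above and 4 below 0 (median 0.014). Rnf111 encodes Arkadia, a ubiquitin ligase that marks SnoN, the Skil product, and SMAD7 for degradation. It stood at 76.6, 79.4, 79.1, 78.1 and 77.0 CPM in BGN and at 75.2, 75.3, 74.4, 73.5 and 69.1 CPM in Control. The groups did not overlap, with BGN the higher, and the log2 fold change was 0.087 (interval 0.00033 to 0.17, edgeR adjusted p = 0.945). It was named for its small p in this comparison, so the lack of overlap adds no support. Smad5, which acts downstream of bone morphogenetic proteins, and Trim33, a SMAD4 ubiquitin ligase gene, had log2 fold changes of 0.066 and 0.065.

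No transcript known to be induced by TGF-beta passed the test. Tested were 24 of the 26 in the list: 0 passed, 11 had estimates above and 13 below 0, and the median log2 fold change was -0.024, beside -0.0040 over all genes tested. Ccn2, a matricellular protein gene, averaged 66.6 ± 1.9 CPM (BGN) and 64.1 ± 10.3 CPM (Control). Its estimate was 0.057, or -0.0012 when Control replicate 3 was dropped. Without Control replicate 5, its highest library at 80.8 CPM, the estimate was 0.154. Tgfbi, a secreted matrix protein gene, was at 76.6 ± 11.2 and 80.1 ± 8.43 CPM (-0.065). Leaving out single libraries moved it between -0.141 (BGN replicate 3) and -0.0044 (BGN replicate 5). The targets of smallest p had estimates below 0. Snai1, a repressor of E-cadherin, stood at 5.11, 4.54, 4.42, 5.36 and 4.79 CPM in BGN and at 6.12, 7.53, 7.34, 6.88 and 4.08 CPM in Control. All Control libraries but replicate 5 lay above the BGN libraries (log2 fold change -0.40, interval -0.69 to -0.11, edgeR adjusted p = 0.945). Tgm2, a transglutaminase gene, was at 154 ± 1.9 and 164 ± 6.77 CPM (-0.087) and the cell cycle inhibitor gene Cdkn2b at 24.2 ± 0.705 and 26.4 ± 2.55 CPM (-0.13), both with an adjusted p of 0.945 by edgeR. Without Control replicate 5, Cdkn2b was at -0.067. Of the induced transcripts, the epithelial-mesenchymal regulators Zeb1 and Zeb2 were not tested, with 31 and 13 counts in all libraries together.

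**Figure D5:**
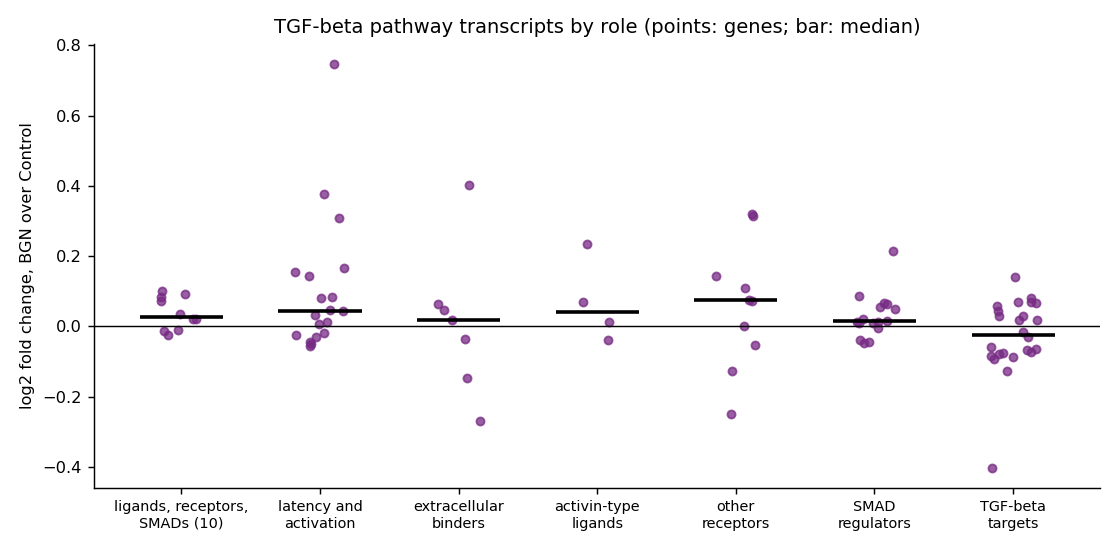
Log2 fold change (BGN over Control, y axis) of each tested transcript by its role in the pathway (x axis), with a bar for the median of each list. The 10 ligands, receptors and SMADs lie between -0.024 and 0.10, and the list medians between -0.024 (TGF-beta targets) and 0.074 (other receptors).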

How the data were processed

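Libraries of 5 BGN and 5 Control samples were made with poly-A selection, per the labels' protocols. The authors deposited raw counts for each gene symbol and sample. Per the submitters' processing notes, which give neither role nor order, the tools were FastQC, cutadapt 1.9.1, HISAT2 2.2.1, HTSeq and DESeq2, and the build GRCm39. Annotation release and strand setting: not given in the sources used here, so reads of overlapping or antisense genes may not be separable. Groups and replicate numbers came from the titles. Totals ranged from 18292624 to 21820560 counts, and every pair of libraries differed by more than sampling noise (chi-square per degree of freedom at least 2.43).

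The test was the robust quasi-likelihood test of edgeR 4.0.16 in R 4.3.3, with group as single term, after filterByExpr and TMM scaling, over 14415 genes with Benjamini-Hochberg adjustment. SE and 95% intervals came from the fold change and its F statistic. Correlations were taken on log2 CPM (prior count 2), with 100000 permutations. The fit was checked on simulated data. Lengths came from GENCODE M21 basic transcripts (another build, by symbol) and promoters from RefSeq GRCm38.p6. Promoter windows of 5 members were used, after entries on 1 chromosome were left out. Named genes were the members, the 3 of smallest p in each pathway list, and Ccn2, Tgfbi, Itgb6, Itgb8, Smad4 and Bgn, plus the 3 nearest genes of each member, of which the text gives 1 or 3. A further gene of that rule is not reported here. Members and lists were chosen with earlier results of these data known. Alternatives were DESeq2 1.42.0, limma-voom (limma 3.58.1), other scalings and filters, the replicate number as a block, and libraries left out.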

Additional observations from a re-analysis of the deposited data

Results flagged for a closer look

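In 38 groups of 5 libraries (20 of members, 18 of library measures), 4 had a library far from the other 4 by Dixon's criterion, where chance gives about 1 in 20. Among members, Tgfbr2 in BGN replicate 5 was at 117.1 CPM against 126 to 128 CPM in the other BGN libraries. Smad3 in Control replicate 1 was at 100.3 CPM against 92.3 to 93.8 CPM in the other Control libraries. Of the library measures, the summed fibroblast markers were at 52.68 CPM in BGN replicate 2 against 46.4 to 47.5 CPM. The summed lymphocyte markers were at 0.05156 CPM in Control replicate 4 and at 0 in the other Control libraries; this is 1 read, and with the other 4 at 0 the criterion is met by construction. The causes were not tested.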

How the results depend on the processing

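Under every alternative run, 0 of the 10 members were called. Over all genes, 3 were called without the filter on low counts (1 higher, 2 lower, none a member) and 0 in each other setting. Members with estimates above 0 numbered 7 under every scaling, filter and test and with the block, and 6 to 9 with libraries left out. The labels do not say whether samples of the same replicate number share a source, and 5 pairs are too few to decide it. Same-numbered libraries correlated from -0.031 to 0.27 in their deviations, with 1 of 5 pairs over 0.1. Of the 5 BGN libraries, 1 was most like the Control library of its number. With the replicate block 0 genes were called, with 825 at an unadjusted p under 0.05 against 694. The smallest adjusted p by edgeR was 0.238 with the block and 0.883 without it. Skil stood at 0.101 with the block.

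Signs of estimates near 0 turned in some settings; none was called on either side, and the cause was not tested. With limma-voom, Tgfbr3 was 0.0014, Smad7 -0.00491 and Smad4 -0.0027. Without the libraries numbered 5 of both groups, Tgfb3 was -0.00176, Tgfbr3 0.0729, Smad2 -0.0101, Inhbb 0.000592 and Gdf11 -0.0331. With single libraries left out, estimates ranged from -0.067 to 0.0188 for Tgfb2, from -0.00787 to 0.0344 for Tgfb3, from -0.0699 to 0.0909 for Tgfbr3, from -0.0227 to 0.00807 for Smad3 and from -0.00344 to 0.0605 for Smad7. They ranged from -0.0153 to 0.142 for Gdf11, from -0.00118 to 0.154 for Ccn2 and from -0.00106 to 0.0376 for Smad4. Without Control replicate 5, Lefty1 was -0.174, Bmpr1a 0.0471 and Trim33 0.0403, and Smad5 was 0.041 without Control replicate 1. Inha ranged from 0.0619 (without BGN replicate 1) to 0.404 (without Control replicate 2). With the longest transcript, 3 of 10 members kept their rank by level per length. Inha gave no value with the stricter filter, which it did not pass.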
